A study of Homo sapiens with 6 samples.

Results

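Expression of the brain-derived neurotrophic factor gene BDNF, of neurotrophin-3 (NTF3) and of the receptors NTRK2 (TrkB), NTRK3 (TrkC), NGFR (p75NTR) and SORT1 (sortilin) was compared between MDA-MB-231 cells and their derivative 231-BR. The members were the rows of the FPKM table with these symbols, and all 6 were found among its 17039 genes. MDA-MB-231 is a human triple-negative breast cancer line bought from a cell bank, and 231-BR is its derivative that homes to the brain, received from another laboratory. Both were grown in DMEM with 10% serum and penicillin-streptomycin, and G418 was added to the 231-BR medium only, so that effects of the antibiotic and of the line cannot be told apart. Poly(A) RNA of 3 parallel replicates per line was sequenced, and expression was given as FPKM (read fragments scaled to transcript length and to the mapped total), a level that can be compared between genes. Whether the replicates were separate cultures is not stated, so that p-values measure the spread between these preparations, which may be technical.

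Neurotrophins are secreted growth factors made as precursors, which proteases cut to the mature form. BDNF and NTF4 bind the receptor tyrosine kinase TrkB, and NTF3 binds mainly TrkC. The p75NTR receptor takes part in binding all mature neurotrophins and, together with sortilin, binds the precursors. Sortilin also sorts precursors inside the cell. The family is best known for neuron survival and synaptic plasticity, and in the brain BDNF is supplied by neurons and glia.

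BDNF was clearly higher in 231-BR cells, NTRK2 was detected there and had 0 FPKM throughout MDA-MB-231, and SORT1 was high and nearly level in both lines. NTF3, NTRK3 and NGFR were at or near 0 throughout. Tests were made with limma on log2(FPKM + 0.1) for the 13465 genes whose FPKM averaged 0.1 or more, with Benjamini-Hochberg adjustment over these genes. BDNF, NTRK2 and SORT1 passed this filter, NTRK2 through its 231-BR libraries alone, and the other 3 members were not tested. All 3 tested members had an adjusted p under 0.05, as had 77.3% of all genes tested, so that the count itself says little about the members. An absolute log2 fold change over 1 in addition was found for BDNF, which was higher. Among all genes tested the share was 15.2% (10.9% higher and 4.34% lower). NTRK2 met this rule too, but a tested gene at 0 in MDA-MB-231 cells can only come out higher. Its log2 fold change also depends on the pseudocount. BDNF alone met the criteria that the study set for differentially expressed genes (DEGs), which also ask for an FPKM of at least 1, here taken as the mean in both lines, against 6.45% of all genes tested (4.68% higher and 1.77% lower). For 3 against 3 libraries the smallest p of an exact 2-sided permutation test is 0.1, so the fit across all genes was relied on.

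**Figure D1:**
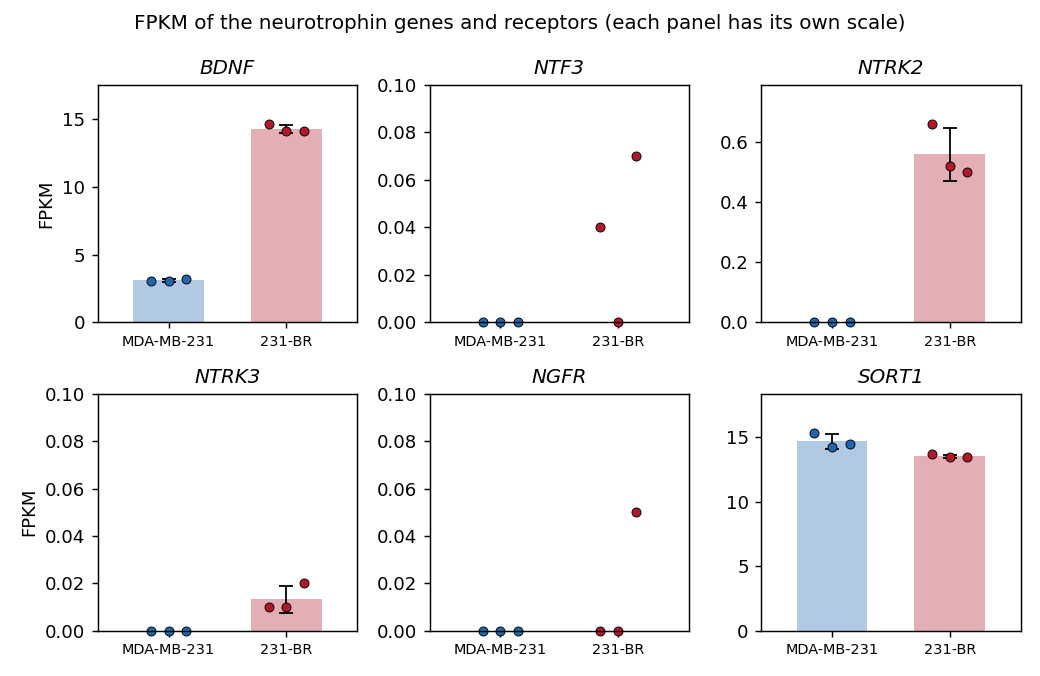
FPKM of the 6 members in the 3 libraries of each line (points), with bars for the mean and error bars for the SD over 3 libraries where no library is at 0; each panel has its own scale. BDNF lies between 14.11 and 14.63 FPKM in 231-BR and between 3.02 and 3.18 in MDA-MB-231, NTRK2 is above 0 in 231-BR cells only, and SORT1 stays between 13.41 and 15.28 FPKM in all libraries.

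BDNF, on chromosome 11, encodes a ligand whose level lay far above those of NTF3 and NTF4 in both lines. Replicates 1 to 3 of 231-BR gave 14.63, 14.11 and 14.17 FPKM, those of MDA-MB-231 gave 3.05, 3.02 and 3.18. The lines did not overlap, which held for 78.4% of all genes tested, and the lowest 231-BR library lay far above the highest MDA-MB-231 library. The means were 14.3 ± 0.284 and 3.08 ± 0.085 FPKM (SD, n = 3 each), a ratio of 4.64, with a log2 fold change of 2.18 ± 0.047 (standard error; limma, adjusted p = 1.1e-10). BDNF ranked 72 by fold change among the 630 DEGs higher in 231-BR cells. The study had picked BDNF as a hub gene on these same libraries, so its direction is not independent evidence. In a 231-BR library between 69.6% and 70.3% of the genes had a lower FPKM than BDNF, against 46.1% to 46.8% in an MDA-MB-231 library.

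NTF3 on chromosome 12, the ligand preferred by TrkC, was barely detected. It had 0.04, 0.00 and 0.07 FPKM in the 231-BR libraries and was listed at 0 in all MDA-MB-231 libraries. Since 231-BR replicate 2 was also at 0, the libraries of the lines overlapped. NTF4, the other ligand of TrkB, moved against BDNF. It had 0.09, 0.14 and 0.23 FPKM in 231-BR cells against 0.53, 0.43 and 0.77 in MDA-MB-231 cells, a log2 fold change of -1.42 ± 0.24 (standard error; limma, adjusted p = 3.8e-04). At these low levels the log2 fold change is drawn toward 0 by the pseudocount. The lines did not overlap, and all 231-BR libraries were below all MDA-MB-231 libraries.

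Among the receptors, NTRK2 on chromosome 9 encodes TrkB, the receptor of BDNF. It had 0.66, 0.52 and 0.50 FPKM in the 231-BR libraries and was listed at 0 in all 3 MDA-MB-231 libraries. All 231-BR libraries were thus above all MDA-MB-231 libraries, at a low level. The difference had an adjusted p of 2.9e-07 (limma), and no fold is given because one line is at 0 and the files hold no counts. NTRK2 passed the filter through 231-BR cells alone, and a tested gene at 0 in the other line can only come out higher. The adjusted p is therefore no separate support for the difference. Of all genes tested, 70, or 0.52%, had an adjusted p under 0.05 and 0 FPKM in all 3 libraries of MDA-MB-231. The FPKM of BDNF was 22.2 to 28.3 times that of NTRK2 within the 231-BR libraries. NTRK2 gives rise to a full-length kinase receptor and to truncated forms without the kinase domain, which values per gene do not separate.

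The other member receptors of the Trk and p75NTR type were lower still. NTRK3 on chromosome 15 had 0.01, 0.01 and 0.02 FPKM in the 231-BR libraries, close to the limit of the 2 decimals given, and was listed at 0 in MDA-MB-231 cells. It stayed under the filter and was not tested. NGFR on chromosome 17, which encodes p75NTR, was listed at 0 in 5 of the 6 libraries and had 0.05 FPKM in 231-BR replicate 3. It was not tested either.

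In 231-BR cells, SORT1 on chromosome 1 was the only member receptor with a level close to that of BDNF. In MDA-MB-231 cells SORT1 lay far above BDNF. It had 13.64, 13.47 and 13.41 FPKM in 231-BR, and replicates of MDA-MB-231 gave 15.28, 14.20 and 14.44. There was no overlap between the lines, but the gap between 13.64 and 14.20 was small. The means were 13.5 ± 0.119 and 14.6 ± 0.567 FPKM (SD, n = 3 each), which gave a log2 fold change of -0.11 ± 0.039 (standard error; limma, adjusted p = 0.020). The call was lost without 231-BR replicate 2 (adjusted p = 0.054), without 231-BR replicate 3 (0.059) and without MDA-MB-231 replicate 1 (0.066), and over all libraries left out in turn the adjusted p ran from 0.019 to 0.066. The difference was larger than the standard error and small beside that of BDNF. Its size also depended on the scaling, as given below.

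In 231-BR cells the order of the levels was BDNF, SORT1 and NTRK2, and the ranges of these neighbours did not overlap. NTF3, NGFR and NTRK3 followed, and their ranges overlapped, so that no order can be given among them. In MDA-MB-231 cells SORT1 came first and BDNF second, and the other 4 members were listed at 0. The FPKM of BDNF was 1.05 to 1.07 times that of SORT1 in 231-BR libraries against 0.200 to 0.220 times in those of MDA-MB-231.

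**Figure D2:**
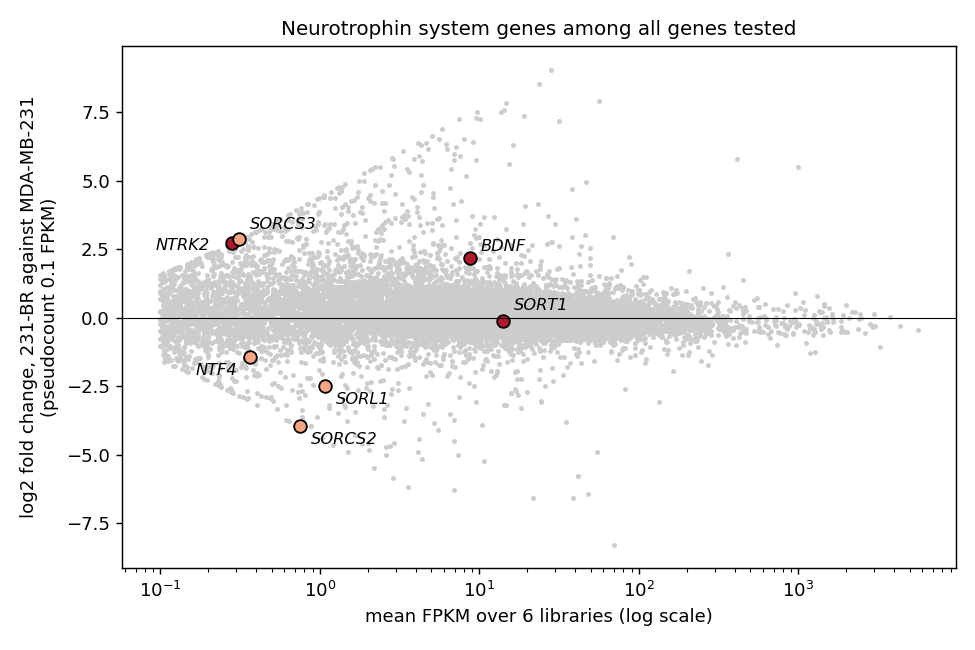
Log2 fold change of 231-BR against MDA-MB-231 cells (pseudocount 0.1 FPKM) against the mean FPKM over 6 libraries (log axis) for the 13465 genes tested (grey), with the tested members in red and their relatives in orange. BDNF lies at 2.18, NTF4 at -1.42 and SORT1 at -0.11; NTRK2 and SORCS3 lie on the edge formed by genes listed at 0 in MDA-MB-231 cells, where the fold change depends on the pseudocount.

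The relatives of SORT1 differed far more between the lines than SORT1 did. SORT1, SORL1, SORCS1, SORCS2 and SORCS3 encode the sortilin family of sorting receptors, and SORCS2 and SORCS3 proteins are known to bind neurotrophin receptors or precursors. SORL1, known for sorting the amyloid precursor protein, had 0.25, 0.27 and 0.25 FPKM in 231-BR cells against 1.98, 1.92 and 1.80 in MDA-MB-231 cells, a log2 fold change of -2.49 ± 0.11 (standard error; limma, adjusted p = 1.3e-08). SORCS2, a partner of p75NTR, was listed at 0 in 231-BR replicates 1 and 2 and had 0.01 FPKM in replicate 3, against 1.53, 1.52 and 1.44 FPKM in MDA-MB-231 cells (adjusted p = 4.0e-09). SORCS3 showed the opposite pattern, with 0.56, 0.66 and 0.65 FPKM in 231-BR cells and 0 in every MDA-MB-231 library (adjusted p = 1.2e-07). SORCS2 passed the filter through MDA-MB-231 cells alone and SORCS3 through 231-BR cells alone. Their adjusted p-values are therefore no separate support for the differences in level. SORCS1 had 0.03, 0.05 and 0.07 FPKM in 231-BR cells and was listed at 0 in MDA-MB-231 cells, and it was not tested. Thus SORL1 and SORCS2 were lower and SORCS3 was higher in every 231-BR library. In the list of the sortilin family and receptor partners, which leaves SORT1 out, 1 of 6 tested genes was higher, 4 were lower and 1 did not pass, with a median log2 fold change of -0.43. Among all genes tested, 44.4% were higher and 32.9% lower. The higher gene was SORCS3, and SORCS2 was among the lower ones, so that the directions of both followed from the filter. SORT1 made up 93.2% to 94.2% of the summed FPKM of the 5 genes in the 231-BR libraries against 80.5% to 81.7% in those of MDA-MB-231.

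**Figure D3:**
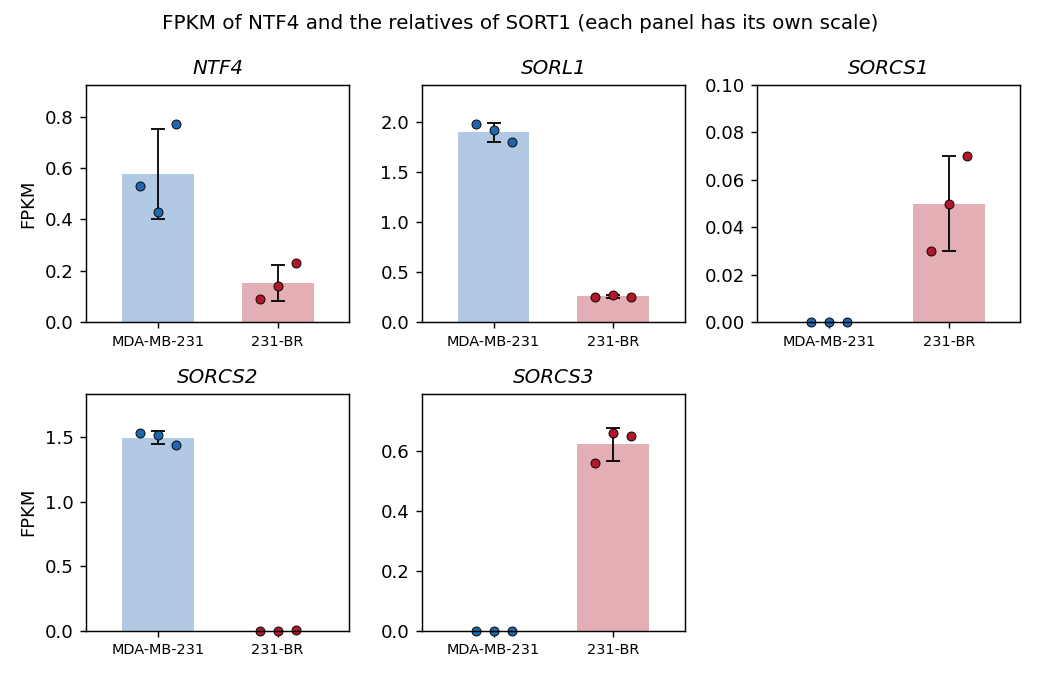
FPKM of NTF4 and the relatives of SORT1 in the 3 libraries of each line (points), with bars for the mean and error bars for the SD over 3 libraries where no library is at 0; each panel has its own scale. SORCS3 is higher and NTF4, SORL1 and SORCS2 lower in every 231-BR library.

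Promoter sequences were examined for BDNF and NTRK2, the members whose levels rose. RefSeq windows on GRCh38.p14, of 250 bases before and 50 after a transcription start, were held for 5 of the 6 members, and not for NGFR. There were 5 windows for BDNF and 4 for NTRK2. The bases before the start were searched on both strands for CACGTG, the E-box bound by USF factors, and for TGACG, the core of the cAMP response element bound by CREB. In the windows shown the matches do not overlap. CACGTG was in 1 BDNF window and no NTRK2 window, and in 6.34% of all 35116 windows. TGACG was in 1 BDNF and 1 NTRK2 window, and in 21.2% of all windows. The 3 windows with a match are shown 5′ to 3′ on the strand of the gene, without bases that lie in an exon of GENCODE release 29, and capitals mark the matches. The E-box starts 42 bases before the start site, and the BDNF match to TGACG, read here as CGTCA, starts 47 bases before it. The NTRK2 window has matches 145 and 56 bases before the start. A match is a description of the sequence, and the values per gene do not say which start site was used.
BDNF, chr11:27720780-27721029, minus strand: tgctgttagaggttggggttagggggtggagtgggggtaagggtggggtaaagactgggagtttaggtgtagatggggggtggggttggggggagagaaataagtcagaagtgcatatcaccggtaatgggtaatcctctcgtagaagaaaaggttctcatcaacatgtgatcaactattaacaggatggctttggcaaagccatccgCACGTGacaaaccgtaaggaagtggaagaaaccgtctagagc
BDNF, chr11:27701634-27701871, minus strand: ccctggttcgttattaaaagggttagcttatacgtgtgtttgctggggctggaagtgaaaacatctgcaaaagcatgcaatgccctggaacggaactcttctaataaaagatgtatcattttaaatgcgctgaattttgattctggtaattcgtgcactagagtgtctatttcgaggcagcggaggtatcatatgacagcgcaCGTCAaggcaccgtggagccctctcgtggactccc
NTRK2, chr9:84670099-84670348, plus strand: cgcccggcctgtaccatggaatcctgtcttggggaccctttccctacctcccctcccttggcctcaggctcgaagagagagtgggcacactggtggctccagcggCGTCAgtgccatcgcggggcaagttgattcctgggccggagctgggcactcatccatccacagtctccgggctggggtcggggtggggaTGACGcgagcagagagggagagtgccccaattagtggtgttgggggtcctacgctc

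The genes around BDNF on the chromosome differed less, on the median, than BDNF. Among genes averaging 1 FPKM or more, the 40 neighbours of BDNF, 20 on each side, had a median log2 fold change of 0.28. An adjusted p under 0.05 and a log2 fold change over 1 were found for 6 of them. Of 40 neighbours each, such genes numbered 5 for NTRK2, 0 for SORT1, 8 for SORL1 and 4 for SORCS2. The share was 10.9% over all genes tested, which include genes of lower FPKM. LIN7C, the nearest neighbour of BDNF on one side, had a log2 fold change of 1.01, and KIF18A on the other side had 0.25. The nearest neighbours of NTF4 were CGB8 with -4.42 and SNRNP70 with 0.04. The median of the 40 neighbours was 0.22 for NTRK2, -0.15 for SORT1, 0.39 for SORL1 and -0.20 for SORCS2, against a median of 0.08 over all genes tested. SORL1 thus lay below neighbours that were higher in 231-BR cells. Exons of the antisense gene BDNF-AS overlap those of BDNF. The library protocol in the labels names no step that marks the strand, and reads from both genes could then not be told apart.

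Over the 11124 genes averaging 1 FPKM or more, likeness to a member was measured as the Euclidean distance between log2(FPKM + 0.1) values centred on each gene's mean over the 6 libraries. The genes most like BDNF were MARCKSL1 (distance 0.034), WNT7B (0.086) and SCD (0.091). Those most like SORT1 were RAD51AP1 (0.026), EHMT1 (0.037) and LRRFIP1 (0.037). With libraries of 2 lines, such likeness mainly reflects a similar difference between the lines.

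Other genes of the pathway were grouped in 10 lists by their role. Of 162 genes, 156 were in the file and 144 could be tested. An adjusted p under 0.05 was found for 68 higher and 56 lower genes in 231-BR cells, while 20 did not pass, beside 44.4% higher and 32.9% lower among all genes tested. The same shares apply to the counts of each list below. The median log2 fold change over the lists was 0.07, against 0.08 over all genes tested. An absolute log2 fold change over 1 as well was found for 23 higher and 6 lower of these 144 genes. Among all genes tested, 10.9% were higher and 4.34% lower by the same criteria. The counts include genes, SORCS2 and SORCS3 among them, that passed the filter only through the line where they are high. The direction of such genes followed from the filter. GSK3B and NFATC4 in these lists had been picked by the study on the same libraries, and their direction is therefore no independent evidence.

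Genes of precursor processing changed in both directions. Of 11 tested, 5 were higher, 3 lower and 3 did not pass, with a median log2 fold change of 0.06. FURIN, the protease that cuts neurotrophin precursors inside the cell, had 6.98, 7.36 and 7.30 FPKM in 231-BR cells against 22.49, 22.77 and 22.48 in MDA-MB-231 cells. Its log2 fold change was -1.63 (standard error 0.037, adjusted p = 1.6e-10 from limma). PCSK5, a related convertase, was 4.50 times as high in 231-BR, with 2.63 ± 0.110 FPKM against 0.583 ± 0.075 (SD, n = 3 each). PLAT, the tissue plasminogen activator that starts cleavage of proBDNF outside the cell, had 27.68, 26.73 and 27.30 FPKM in 231-BR cells against 6.87, 7.14 and 6.27. The lines were separated by far more than the spread between libraries. CPE, a sorting receptor and processing enzyme for secreted peptides, rose with a log2 fold change of 2.88, from 0.493 ± 0.084 to 4.25 ± 0.193 FPKM (SD, n = 3 each). MMP3 fell by 0.60 on the log2 scale. PLG, which encodes the substrate of PLAT, averaged 0.013 FPKM in 231-BR against 0.020 in MDA-MB-231 and was not tested.

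All 8 genes of receptor shedding and of the gamma-secretase complex, which cut p75NTR, passed the test, 3 higher and 5 lower, with a median of -0.22. Of all genes tested, 77.3% passed. PSEN2 and APH1B, members of the complex, rose with log2 fold changes of 0.97 and 0.93. ADAM17, a sheddase, and NCSTN, another member of the complex, fell with -0.54 and -0.49. The receptor these enzymes cut was itself at or near 0, as given above.

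Of 22 Trk adaptors tested, 10 were higher, 9 lower and 3 did not pass, with a median log2 fold change of 0.01. SH2B2 rose from 0.63 to 1.66 FPKM, with a log2 fold change of 1.30, and GAB2, a docking protein, rose with 1.08. SHC3, the form of the SHC adaptor found mainly in neurons, rose with 0.93, while SHC1, the widely expressed form, fell with -0.36. TIAM1 and VAV2, both exchange factors for Rac, fell with -0.56 and -0.53. Of 15 tested p75NTR adaptors, 8 were higher and 7 lower, with a median of 0.40. BEX3, which binds the p75NTR death domain, had 157.80, 162.60 and 166.60 FPKM in 231-BR cells against 59.13, 56.38 and 60.50, a log2 fold change of 1.47. MAGED1 (NRAGE) and MAGEH1, MAGE proteins named as p75NTR partners, rose with 1.09 and 0.87. TRAF2 fell by 0.90 on the log2 scale. These adaptors also serve other receptors.

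Of 27 kinases and GTPases downstream of Trk receptors, 12 were higher, 7 lower and 8 did not pass, with a median of 0.10. GSK3B and RPS6KA5, a kinase that acts on CREB, rose with 1.35 and 1.22. RPS6KA3, HRAS and BRAF fell with -0.48, -0.45 and -0.43.

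Among 22 regulators of the BDNF gene, 10 were higher, 8 lower and 4 did not pass, with a median of 0.06. NFATC4 had 1.16, 1.35 and 1.18 FPKM in 231-BR cells against 0.04, 0.03 and 0.05 in MDA-MB-231, so that its log2 fold change of 3.25 is drawn toward 0 by the pseudocount. CRTC1, a coactivator of CREB, had 14.23, 13.95 and 14.55 FPKM against 3.61, 4.16 and 4.15, a log2 fold change of 1.82 ± 0.060 (standard error; limma, adjusted p = 2.2e-09). Both genes were higher in all 231-BR libraries, without overlap. MEF2C rose with 1.72. CREM, which gives rise to activators and repressors at the same element, fell by 1.06. CREB1 itself had a log2 fold change of 0.07 and did not pass (adjusted p = 0.13). REST, a repressor of neuronal genes, rose with 0.52, and NPAS4, an activity-dependent activator of BDNF, was at most at a mean of 0.0067 FPKM in either line.

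Of 15 tested genes known to be induced by neurotrophins, 11 were higher, 3 lower and 1 did not pass, with a median of 0.53. Among all genes tested, 44.4% were higher and 32.9% lower. EGR1 had 2.67, 2.63 and 2.50 FPKM in 231-BR cells against 0.56, 0.70 and 0.72, a log2 fold change of 1.84. DUSP4 and DUSP6, phosphatases that act on MAP kinases, rose with 1.26 and 1.17. SPRY4, PLAUR and FOSL1 fell with -0.55, -0.54 and -0.40. VGF, a neuropeptide precursor, had a log2 fold change of -0.09 and did not pass (adjusted p = 0.44). Many other growth factors induce the genes of this list.

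All 16 tested genes of the sortilin route passed, 7 higher and 9 lower, with a median of -0.07. The share that passed was 77.3% over all genes tested. The mannose 6-phosphate receptors IGF2R and M6PR, which share the route of sortilin to lysosomes, fell with -0.81 and -0.79. The adaptors of this route differed in direction, GGA1 with -0.66 and GGA3 with 0.56. VPS26B, a retromer subunit, and GRN, which encodes the sortilin ligand progranulin, rose with 0.50 and 0.35.

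**Figure D4:**
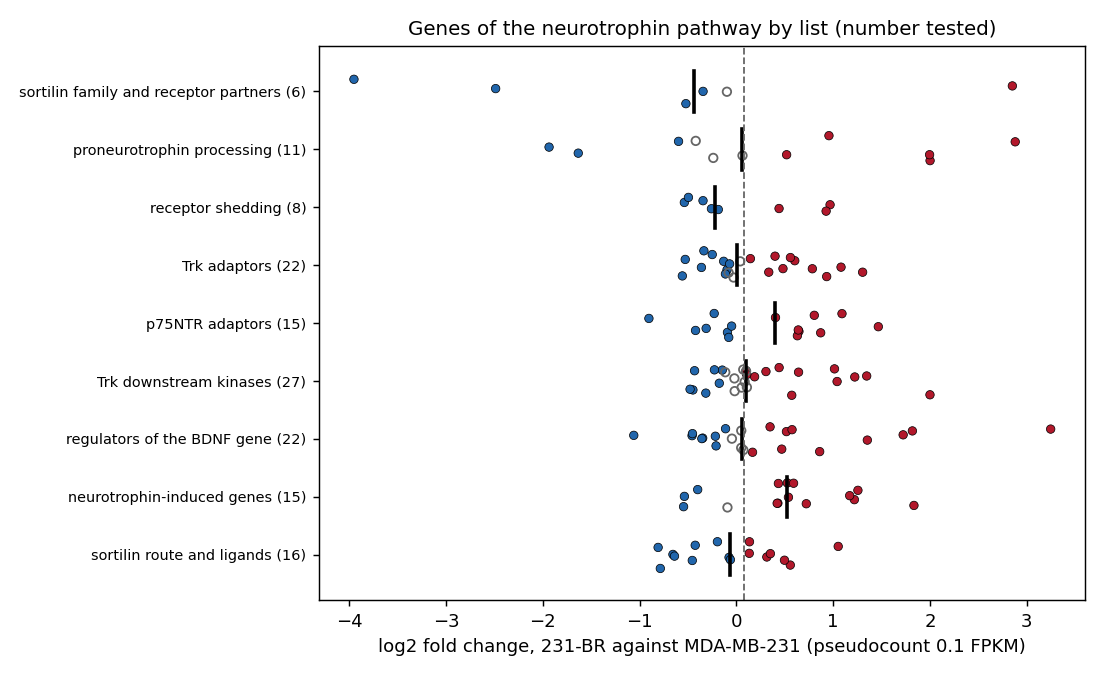
Log2 fold change of 231-BR against MDA-MB-231 cells for the pathway lists with at least 6 tested genes (pseudocount 0.1 FPKM, number tested in brackets); red and blue points have an adjusted p under 0.05 and open points do not, thick lines are list medians, and the dashed line is the median of all genes tested, 0.08. The list medians run from -0.43 for the sortilin family and receptor partners to 0.53 for neurotrophin-induced genes, and most lists hold points on both sides of 0.

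The summed FPKM of a library was 465020 to 472007 in 231-BR, against 486937 to 496420 in MDA-MB-231. The lowest correlation of log2 values across genes was 0.997 within either line, and the highest between lines was 0.902. VIM, CD44, KRT8, KRT18, EGFR and AXL, used as markers of the lines, had means of at least 33.3 FPKM in both. PGR stayed under 0.1 FPKM on average, ESR1 had means of 0.927 and 0.790 FPKM, and ERBB2 had 9.88 and 4.95 FPKM, 231-BR first. Of 18 neuron and glia markers, 15 were in the file and their summed FPKM was 29.1 to 30.5 in 231-BR, against 14.3 to 15.7 in MDA-MB-231, most of it from MBP. Of the 6 tested, 3 were higher, 1 was lower and 2 did not pass. SYT1 and MAP2 rose in 231-BR cells, from 0.380 to 6.35 and from 0.227 to 1.56 FPKM, as did MBP, with a log2 fold change of 0.62. SNAP25 fell from 0.203 to 0.053 FPKM (limma, adjusted p = 0.0025). STMN2, AQP4, SOX10 and S100B were listed at 0 in MDA-MB-231 cells and had means of at most 0.017 FPKM in 231-BR cells. Of 7 leukocyte and endothelial markers, 5 were in the file. Their summed FPKM was 0.43 to 0.54 in 231-BR, against 0.20 to 0.22 in MDA-MB-231. PECAM1, the only one of them tested, averaged 0.42 FPKM in 231-BR against 0.183 in MDA-MB-231 (limma, adjusted p = 6.6e-04). The part of these genes in the values of BDNF and NTRK2 was not tested, and in bulk RNA more cells expressing a gene and more RNA per cell cannot be told apart.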

How the data were processed

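Per the labels and the study's methods, poly(A) RNA was sequenced as paired reads, filtered, aligned by the authors with HISAT2 2.0.4 to the genome (GRCh38.p12 in the submitters' processing notes) and with Bowtie2 2.2.5 to a gene set, and the values were deposited as FPKM with 2 decimals. The program that computed FPKM is not given in the sources used here. Counts were not used here, so the depth is unknown, and low values showed no step equal to 1 read. In place of the count test of the study, log2(FPKM + 0.1) was fitted with limma 3.58.1 (R 4.3.3), with a mean-variance trend and 1 term for the line, after a check on simulated data. Libraries were grouped by title, since the cell line field counts up with the replicate, from 231 to 233. The 6 members and the lists were chosen with earlier results of these data known. Some items are not reported here. Named were otherwise all members, NTF4 and the 3 largest increases and decreases per list with an adjusted p under 0.05 and at least 1 FPKM on average in either line, and the 3 genes most like BDNF and SORT1; the other genes named were chosen after their values were seen. Deviations of same-numbered libraries from the means of their lines had correlations of 0.087, -0.040 and -0.11 across genes. These weak values gave no sign of pairing and cannot exclude it, and the titles do not state any. Chromosomes and gene order came from RefSeq (GRCh38.p14). Alternatives were pseudocounts of 1 and 0.01, no filter, a stricter filter (mean FPKM of 1), quantile normalization, median-of-ratios scaling, no trend, a replicate block, other fold and FPKM criteria, and each library left out.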

Additional observations from a re-analysis of the deposited data

How the results depend on the processing

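All 41 refits of BDNF, NTRK2 and SORT1 kept the direction of the difference, and 38 kept the side of the threshold. The 3 exceptions were SORT1 without 231-BR replicate 2, 231-BR replicate 3 or MDA-MB-231 replicate 1. With each library left out in turn its log2 fold change ran from -0.136 (without MDA-MB-231 replicate 2) to -0.084 (without MDA-MB-231 replicate 1). All 864 refits of the named pathway genes that could be tested kept direction and side. Of the members tested, 1 in place of 2 passed the fold criterion with a pseudocount of 1, which draws NTRK2 toward 0, and 1 with a filter at a mean FPKM of 1, under which NTRK2 is not tested. With quantile normalization the median of all genes tested moved from 0.08 to -0.06, BDNF had 2.001 and SORT1 -0.19 (limma, adjusted p = 0.0011). After median-of-ratios scaling SORT1 had -0.20 (limma, adjusted p = 7.8e-04). The size of the SORT1 difference thus depended on the scaling. The pathway genes were 68 higher and 56 lower, 61 and 62 after median-of-ratios scaling, and 63 and 61 after quantile normalization. With the replicate block, BDNF had 2.18, SORT1 had -0.11 (limma, adjusted p = 0.019), and 68 pathway genes were higher and 54 lower. The block changed no call of a member, and whether same-numbered libraries share more than a number is not stated. Values under 0.1 FPKM rest on few reads, and without depths no limit can be set for genes listed at 0.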
